A study of Mus musculus with 10 samples.

Results

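The 10 genes described here set the tone of blood vessels. They are endothelin (Edn1), its converting enzyme (Ece1) and its receptors (Ednra and Ednrb), endothelial nitric oxide synthase (Nos3), the caveolins Cav1 and Cav2, prostacyclin synthase (Ptgis), angiotensin-converting enzyme (Ace) and an angiotensin receptor (Agtr1a). They were chosen by gene symbol, and each matched 1 of the 24016 transcripts in the expression table. Ribosome-depleted RNA from whole liver was sequenced for 10 mice, all of the C57BL/6 strain and, per the methods of the study, young adult males. Of these, 5 had received AdVEGF by tail vein, an adenovirus that expresses the growth factor VEGF-A, and 5 had received AdCMV, a control adenovirus with only the CMV promoter and no transgene, so that both groups carried adenovirus. All livers were collected 6 days after gene transfer.

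Blood vessels widen or narrow as the smooth muscle and pericytes around them relax or contract, and the endothelium that lines them sends many of the signals. Endothelin is a strong constrictor that acts through the A-type receptor on contractile cells and through the B-type receptor on endothelium, which answers by releasing nitric oxide. Nitric oxide and prostacyclin relax the vessel, angiotensin II constricts it, and caveolins form the small membrane pits in which the nitric oxide synthase is held inactive. In the liver, hepatic stellate cells contract around the sinusoids and carry receptors for endothelin and angiotensin, and the sinusoidal endothelium is rich in the B-type endothelin receptor.

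By totals inferred from the spacing of the deposited values, the libraries held 5758959 to 13494003 mapped reads in AdCMV mice and 5596564 to 8133954 in AdVEGF mice. Reads recovered on transcripts exceeded these totals in every library, at 10744078 against 9429222 in AdCMV replicate 4. The reason, and its effect on the shares of reads given below, was not tested. Values are in RPKM, reads scaled to transcript length and to the mapped reads of the library, so that levels can be set side by side between genes. Major urinary protein (Mup) transcripts took 18.0% to 50.5% of the reads recovered for named genes in AdCMV mice and 7.84% to 28.6% in AdVEGF mice. A median gene was higher in AdVEGF by 0.38 on the log2 scale, and scaling the libraries by the median ratio over genes moved this to -0.0044. Of all calls, 89.4% were higher in AdVEGF with the deposited values and 71.2% after that scaling. The mouse Vegfa transcript was at 13.8 to 23.2 RPKM in AdCMV and 28.3 to 39.4 RPKM in AdVEGF mice; how far reads of the delivered VEGF-A count towards it was not tested.

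Promoter sequences are shown for both endothelin receptors and both caveolins, pairs whose members were compared with each other, and for Edn1, the ligand. They come from RefSeq on the GRCm38.p6 build, whose table held 12 start sites for 7 of the 10 genes; Nos3, Ptgis and Agtr1a were not among them. Each line is the 250 bases before the start, 5′ to 3′ on the gene's strand, and the first listed start of Cav1 was used. By its distance from Cav2, the measured Cav1 transcript starts instead at the other listed start, behind chr6:17307390-17307639, which is not printed. Capitals mark matches, on either strand, to the motifs AGATAA, known for GATA factors, TGANTCA, known for AP-1, AGGAAG, known for ETS factors, GGGCGG, known for SP and KLF factors, TATAAA, the letters at which many promoters bind the basal machinery, and CCAAT, known for NF-Y. No overlap between matches of different motifs occurred in these windows.
Ednra, chr8:77724453-77724702, minus strand: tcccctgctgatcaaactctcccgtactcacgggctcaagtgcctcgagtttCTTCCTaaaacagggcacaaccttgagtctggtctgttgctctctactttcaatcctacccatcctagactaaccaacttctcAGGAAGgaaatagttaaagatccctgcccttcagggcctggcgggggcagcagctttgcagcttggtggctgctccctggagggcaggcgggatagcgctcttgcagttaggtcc
Ednrb, chr14:103843702-103843951, minus strand: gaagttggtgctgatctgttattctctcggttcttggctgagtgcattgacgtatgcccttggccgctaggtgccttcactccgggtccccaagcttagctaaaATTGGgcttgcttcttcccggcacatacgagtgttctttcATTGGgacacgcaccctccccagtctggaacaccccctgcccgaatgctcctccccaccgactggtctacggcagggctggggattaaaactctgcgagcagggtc
Edn1, chr13:42301226-42301475, plus strand: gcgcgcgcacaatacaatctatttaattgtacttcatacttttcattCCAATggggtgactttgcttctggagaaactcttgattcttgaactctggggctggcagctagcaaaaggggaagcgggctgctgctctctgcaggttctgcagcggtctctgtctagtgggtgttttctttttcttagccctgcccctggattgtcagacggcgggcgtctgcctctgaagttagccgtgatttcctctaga
Cav2, chr6:17280935-17281184, plus strand: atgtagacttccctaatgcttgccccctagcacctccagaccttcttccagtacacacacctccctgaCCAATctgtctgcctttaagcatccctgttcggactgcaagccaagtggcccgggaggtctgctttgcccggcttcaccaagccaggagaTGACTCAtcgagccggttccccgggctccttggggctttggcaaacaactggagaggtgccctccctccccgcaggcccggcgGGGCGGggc
Cav1, chr6:17306085-17306334, plus strand: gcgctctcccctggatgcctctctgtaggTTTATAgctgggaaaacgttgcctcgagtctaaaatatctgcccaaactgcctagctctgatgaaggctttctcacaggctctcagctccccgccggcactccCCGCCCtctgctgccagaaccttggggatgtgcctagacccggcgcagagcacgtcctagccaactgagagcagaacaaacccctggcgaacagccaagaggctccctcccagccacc

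The sequences differed within each pair. The window of Ednra held 2 AGGAAG matches, 198 and 115 bases before the start, and that of Ednrb held none of these but 2 CCAAT matches, 146 and 106 bases before it. Cav2 held an AP-1 match 92 bases before the start, a GGGCGG 9 bases before it and a CCAAT 182 bases before it. The printed window of Cav1 held a GGGCGG 118 bases and a TATAAA 221 bases before its start. The window at the start of the measured Cav1 transcript held none of the listed motifs. Edn1 held a single CCAAT, 203 bases before the start. None of the 5 printed windows held AGATAA. Such letters are common: among 32851 promoter windows of the same length, 9.99% held AGATAA, 6.75% TGANTCA, 29.5% AGGAAG, 32.7% GGGCGG, 12.4% TATAAA and 33.8% CCAAT. A match is a description of the letters and was not tested as a binding site.

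Of the 10 genes, 7 were called higher in AdVEGF and 0 lower, against a background of 13% of the 13933 genes tested called higher and 1.54% called lower. A call needed a Benjamini-Hochberg adjusted p under 0.05 in limma and a log2 fold change beyond 1. At an unadjusted p under 0.05, 9 genes were higher and 0 lower, both in this fit and with voom on the reads recovered from the values, against 34.9% of all genes higher and 3.69% lower at that p in this fit. The genes called were Nos3, Cav2, Ednra, Ednrb, Ace, Cav1 and Ptgis. After median-ratio scaling 4 remained called, Nos3, Cav2, Ednra and Ednrb, against 7.77% of all genes called higher, and 0 of the 10 were called lower, against 3.14%, with all 10 fold changes above 0. These 4 were called under each of the 19 alternatives run. Edn1, Ece1 and Agtr1a were called under none. All 10 passed the filter on low values, Ace only through its AdVEGF level.

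**Figure D1:**
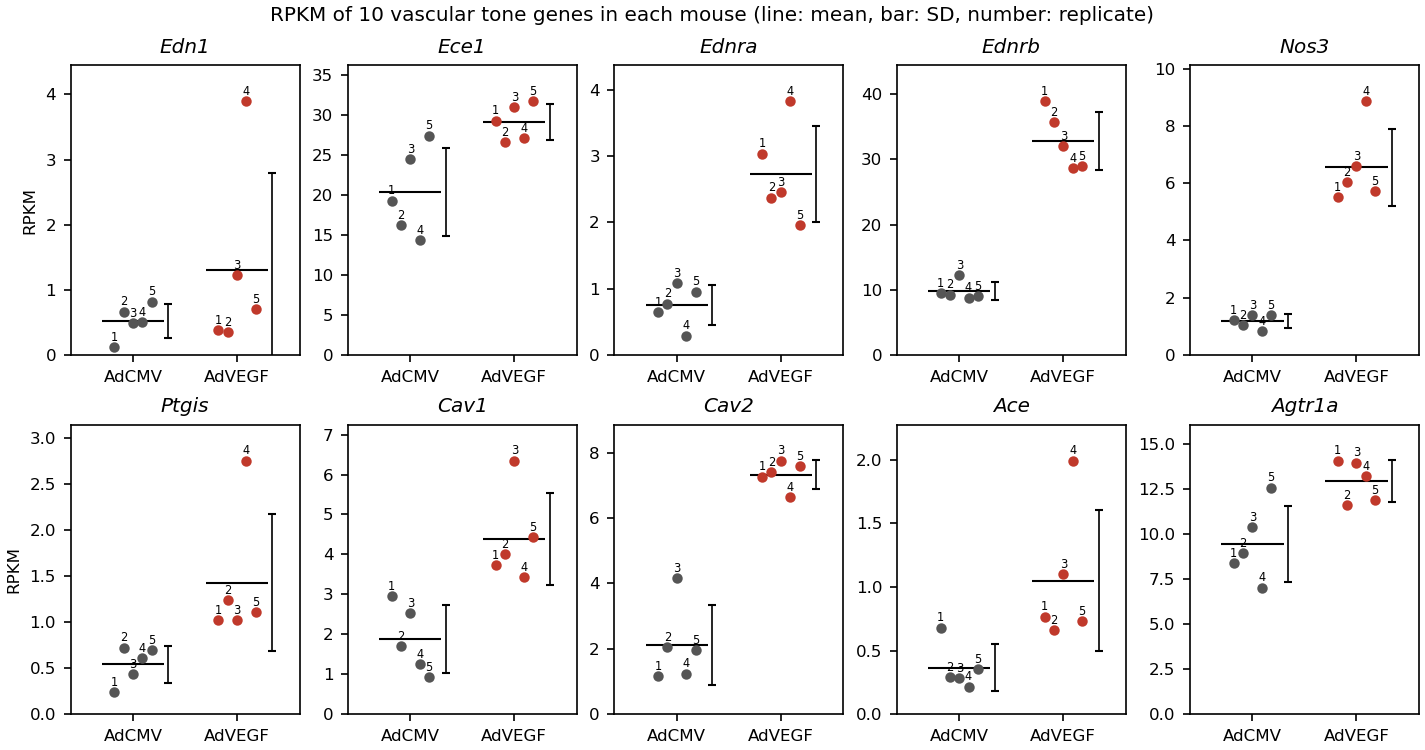
RPKM of each gene (y axis, from 0) in every mouse of the AdCMV (grey) and AdVEGF (red) groups, with the replicate number above each point, a line at the mean and a bar of 1 SD to its right (n = 5 per group; the lower end of the bar for Edn1 in AdVEGF runs below 0 and is not drawn). The groups are apart for Ednra, Ednrb, Nos3, Ptgis, Cav1 and Cav2 and overlap for Edn1, Ece1, Ace and Agtr1a.

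The values of 6 genes did not overlap between the groups, each AdVEGF mouse lying above each AdCMV mouse, which held for 14.3% of all genes tested. None lay below in this way, which held for 1.29%. Such separation fixes the exact permutation test over samples, two-sided over all splits of 5 against 5, at its smallest value, p = 0.00794. For the 6 genes this test therefore adds nothing to the lack of overlap. For the genes with overlap it gave exact permutation p = 0.0159 for Ace, exact permutation p = 0.0238 for both Ece1 and Agtr1a, and exact permutation p = 0.286 for Edn1. After median-ratio scaling the values were apart for 4 of the 10 genes, and for 10.6% of all genes. In bulk liver RNA, more cells of a type and more RNA per cell cannot be told apart. The 12 pan-endothelial markers were called higher in 12 of 12 cases, with a summed level of 41.8 to 82.1 RPKM in AdCMV and 347 to 441 RPKM in AdVEGF, and no marker was at 0 in a whole group. Their part in the changes of the 10 genes was not tested beyond the comparison with these markers given further on.

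Of the endothelin genes, the transcripts of both receptors were called higher. Ednra, the A-type receptor that mediates contraction (mm9 chr8:80186928-80248351), was at 0.646, 0.775, 1.08, 0.292 and 0.956 RPKM in the AdCMV mice and at 3.04, 2.37, 2.46, 3.82 and 1.96 RPKM in the AdVEGF mice. The lowest AdVEGF mouse lay well above the highest AdCMV mouse. Means were 2.73 ± 0.721 RPKM (SD, n = 5) against 0.750 ± 0.306 RPKM, a log2 fold change of 1.79 (SE 0.32, limma adjusted p = 0.000498), or 1.44 with the libraries scaled. These values rest on 10 to 38 reads per AdCMV library and 48 to 113 per AdVEGF library.

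Ednrb, the B-type receptor of endothelium that also clears endothelin from blood (mm9 chr14:104213832-104242918), stood at a higher level. It was at 9.45, 9.26, 12.2, 8.78 and 9.06 RPKM in the AdCMV mice and at 38.9, 35.7, 32.1, 28.6 and 29.0 RPKM in the AdVEGF mice. All AdVEGF values were above 28 RPKM and the AdCMV values formed a narrow band apart from replicate 3. After median-ratio scaling replicate 3, at 9.99 RPKM, lay within the AdCMV range of 9.15 to 13.3 RPKM. The mean was 32.9 ± 4.42 RPKM against 9.75 ± 1.39 RPKM, with a log2 fold change of 1.74 (SE 0.18, limma adjusted p = 2.43e-06) and 1.34 after scaling. It was counted on 145 to 737 reads per library.

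Both receptors rose by about the same amount. The log2 ratio of Ednrb to Ednra was 3.57 ± 0.40 in AdVEGF and 3.62 ± 0.53 in AdCMV (SD, n = 5). The difference was -0.051 (exact permutation p = 0.881, two-sided), and the ranges overlapped, from 2.87 to 3.86 and from 3.12 to 4.50. With a pseudocount of 1 the difference turned to 0.56 (exact p = 0.0317), a pseudocount above 4 of 5 AdCMV values of Ednra. It also changed sign without AdCMV replicate 4 (0.17) and without AdVEGF replicate 4 (0.12).

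Edn1, the precursor of the constrictor peptide itself (mm9 chr13:42396639-42403358), was at 0.118, 0.666, 0.489, 0.499 and 0.817 RPKM in the AdCMV mice and at 0.381, 0.346, 1.22, 3.89 and 0.699 RPKM in the AdVEGF mice. Replicates 3 and 4 of AdVEGF lay above the AdCMV range and the other AdVEGF mice within it. Its log2 fold change of 0.81 (SE 0.55, limma adjusted p = 0.28) was 0.31 without AdVEGF replicate 4. It rests on 2 to 21 reads per AdCMV library and 5 to 74 per AdVEGF library. What size of change could be called at this depth and spread was not tested.

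Ece1, the membrane protease that cuts the precursor to its active form (mm9 chr4:137418152-137521144), was at 19.3, 16.2, 24.5, 14.3 and 27.4 RPKM in the AdCMV mice and at 29.3, 26.6, 30.9, 27.0 and 31.6 RPKM in the AdVEGF mice. Only AdCMV replicate 5 lay within the AdVEGF range. On the log2 scale the fold change was 0.55 (SE 0.20, limma adjusted p = 0.0566) and 0.15 after median-ratio scaling, close to the shift of a median gene. It was the best measured of the 10 genes, with 647 to 1054 reads per library.

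Nos3, the enzyme that makes nitric oxide in endothelium (mm9 chr5:23870637-23890292), rose most of the 10 genes. It was at 1.21, 1.03, 1.40, 0.829 and 1.40 RPKM in the AdCMV mice and at 5.52, 6.05, 6.59, 8.86 and 5.73 RPKM in the AdVEGF mice. The lowest AdVEGF mouse was several times above the highest AdCMV mouse. The mean was 6.55 ± 1.35 RPKM against 1.17 ± 0.245 RPKM, 5.58 times as high, with a log2 fold change of 2.39 (SE 0.23, limma adjusted p = 9.55e-07) and 2.00 after scaling. The annotated span of Nos3 overlaps that of Atg9b on the opposite strand by 293 bases, and Atg9b also went from 0.882 ± 0.147 to 5.03 ± 1.95 RPKM. Whether the counting used strand is not given in the sources used here, so reads of the shared stretch cannot be assigned to either gene.

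The caveolins, which coat caveolae, were both higher. Cav2 (mm9 chr6:17231185-17239130) was at 1.16, 2.05, 4.16, 1.24 and 1.96 RPKM in the AdCMV mice and at 7.27, 7.41, 7.75, 6.63 and 7.58 RPKM in the AdVEGF mice. The AdVEGF mice were nearly alike, and AdCMV replicate 3 stood above its group. The mean was 7.33 ± 0.430 RPKM against 2.11 ± 1.22 RPKM, with a log2 fold change of 1.89 (SE 0.28, limma adjusted p = 0.000109).

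Cav1, which binds and inhibits the nitric oxide synthase, lies 18510 bases beyond Cav2 on the same strand (mm9 chr6:17257640-17291328). It was at 2.95, 1.70, 2.52, 1.26 and 0.929 RPKM in the AdCMV mice and at 3.74, 4.01, 6.35, 3.43 and 4.43 RPKM in the AdVEGF mice. The groups were apart by a small margin, between AdCMV replicate 1 and AdVEGF replicate 4. The mean was 4.39 ± 1.15 RPKM against 1.87 ± 0.850 RPKM, with a log2 fold change of 1.27 (SE 0.30, limma adjusted p = 0.00502). After median-ratio scaling it was 0.88 (limma adjusted p = 0.0469), under the fold change needed for a call, and the groups then overlapped.

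The balance of these genes was measured as log2 ratios within each mouse, 3 ratios in all with that of the endothelin receptors. Nos3 over Cav1 was 0.58 ± 0.48 in AdVEGF and -0.54 ± 0.66 in AdCMV, a difference of 1.12 (exact permutation p = 0.0238, two-sided, and 0.0714 adjusted over the 3 ratios). Only 3 of 5 AdVEGF mice lay above the AdCMV range, because AdCMV replicate 5, with the lowest Cav1, had a ratio of 0.54. Cav1 over Cav2 was -0.76 ± 0.27 in AdVEGF and -0.13 ± 0.88 in AdCMV, a difference of -0.63 (exact permutation p = 0.151, adjusted 0.226), and the AdCMV range, which reached 1.28, held all AdVEGF mice. No ratio passed the threshold after adjustment.

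Ptgis, which makes prostacyclin, a vasodilator (mm9 chr2:167028696-167066037), was at 0.238, 0.724, 0.438, 0.610 and 0.699 RPKM in the AdCMV mice and at 1.02, 1.24, 1.03, 2.76 and 1.11 RPKM in the AdVEGF mice. The groups were apart, with 4 AdVEGF mice close together and replicate 4 far above them. Its log2 fold change of 1.22 (SE 0.36, limma adjusted p = 0.0202) was no longer called after median-ratio scaling (0.86, limma adjusted p = 0.0932), without AdVEGF replicate 4 (0.97, limma adjusted p = 0.0631) or without AdCMV replicate 1 (1.01, limma adjusted p = 0.0629). It rests on 3 to 17 reads per AdCMV library and 10 to 39 per AdVEGF library.

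Ace, the endothelial enzyme that makes angiotensin II and breaks down bradykinin (mm9 chr11:105829259-105851278), was at 0.679, 0.289, 0.286, 0.217 and 0.356 RPKM in the AdCMV mice and at 0.766, 0.662, 1.10, 1.99 and 0.731 RPKM in the AdVEGF mice. AdCMV replicate 1 reached into the AdVEGF range, and 4 of 5 AdVEGF mice lay above it. A log2 fold change of 1.27 was measured (SE 0.38, limma adjusted p = 0.0228). The call was lost after median-ratio scaling (0.93, limma adjusted p = 0.0759) and without any 1 of AdCMV replicates 2 and 4 or AdVEGF replicates 3 and 4, at limma adjusted p of 0.0508, 0.0559, 0.0582 and 0.0715. The annotated span of Ace overlaps that of Gm11651 on the opposite strand by 17749 bases, which was at a mean of 0.0394 RPKM in AdCMV and 0.231 RPKM in AdVEGF, and shared reads could not be assigned by strand.

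Agtr1a, the main receptor of angiotensin II in mouse liver (mm9 chr13:30428225-30474736), was at 8.36, 8.94, 10.4, 7.03 and 12.6 RPKM in the AdCMV mice and at 14.1, 11.6, 14.0, 13.2 and 11.9 RPKM in the AdVEGF mice. The ranges overlapped at AdCMV replicate 5, and 3 AdVEGF mice lay above the AdCMV range. The groups differed by a log2 fold change of 0.47 (SE 0.19, limma adjusted p = 0.0864), or 0.07 after median-ratio scaling.

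**Figure D2:**
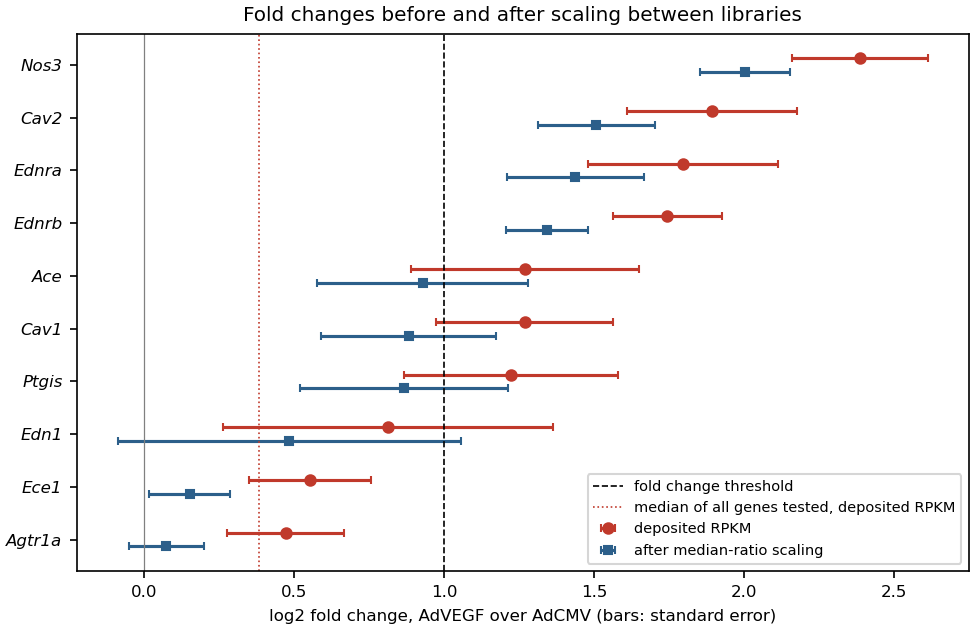
Change of each of the 10 genes as the log2 of AdVEGF over AdCMV (x axis; bars are standard errors from limma), with the deposited RPKM (red circles) and after scaling of libraries by the median ratio (blue squares). The dashed line is the fold change needed for a call and the dotted line the median of all genes tested at 0.38; scaling takes Ace, Cav1 and Ptgis to 0.93, 0.88 and 0.86, under the dashed line, and leaves Nos3, Cav2, Ednra and Ednrb beyond it.

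The order of the levels changed with the vector. In AdCMV mice Ece1 was the highest of the 10 genes at a mean of 20.3 RPKM, above Ednrb in all 5 mice with no overlap. Ednrb and Agtr1a followed at 9.75 and 9.45 RPKM with overlapping ranges, and both were above Cav2 at 2.11 RPKM. In AdVEGF mice Ednrb led at 32.9 RPKM, with Ece1 at 29.1 RPKM in an overlapping range, and Agtr1a came next at 12.9 RPKM, apart from its neighbours on both sides. Below Cav2 the ranges of neighbouring genes overlapped in both groups. Ace and Edn1 were at the bottom with overlapping ranges, at means of 0.365 and 0.518 RPKM in AdCMV and of 1.05 and 1.31 RPKM in AdVEGF. Without AdVEGF replicate 4 the order of that last pair turned, with Ace at 0.815 and Edn1 at 0.662 RPKM.

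The spread among the AdVEGF mice differed between genes. For Cav2 the SD of the log2 values was 0.0855, for Ece1 0.112 and for Agtr1a 0.130, whereas it was 0.570 for Ptgis, 0.597 for Ace and 1.30 for Edn1. AdVEGF replicate 4 was the highest AdVEGF mouse for 5 of the 10 genes. There Edn1 was 5.57 times the group's median, Ace 2.60, Ptgis 2.48, Ednra 1.56 and Nos3 1.46 times. Its smooth muscle and pericyte markers also had the highest summed level of the group, 259.9 RPKM against 110.5 to 219.9 RPKM in the other AdVEGF mice, and their part in these values was not tested. Its pan-endothelial sum of 441 RPKM was the highest as well, against 347 to 409 RPKM. By the mean of log2 values, however, pan-endothelial markers were highest in AdVEGF replicate 3, at 4.61 against 4.58 in replicate 4. Smooth muscle and pericyte markers were then at 3.23 in both of these mice. Without AdVEGF replicate 4, 5 of the 10 genes were called higher, Ptgis and Ace being lost.

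**Figure D3:**
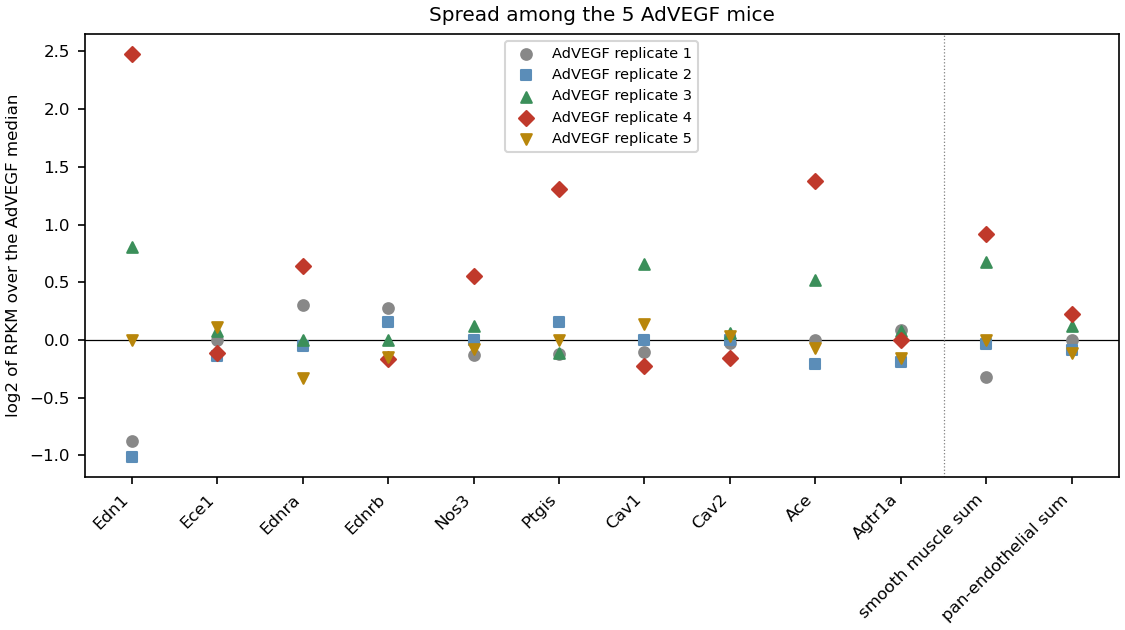
Each AdVEGF mouse (5 symbols) as the log2 of its RPKM over the median of the AdVEGF group (y axis), for the 10 genes and for the summed smooth muscle and pericyte markers and pan-endothelial markers at right (x axis). Replicate 4 (red diamonds) is the highest for Edn1, Ednra, Nos3, Ptgis and Ace and for both marker sums, while the mice nearly coincide for Ece1, Cav2 and Agtr1a.

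The 10 genes were then set against the endothelium, by subtracting from each mouse's log2 values the mean of the 12 pan-endothelial markers. All 10 genes were then lower in AdVEGF relative to this mean. At an adjusted p under 0.05 so were 95.9% of all genes tested, a share near that of the 10 genes. The markers themselves rose by 1.43 (Tek) to 5.33 (Emcn) on the log2 scale. Tek and Eng (1.50) rose less than Nos3, Cav2, Ednra and Ednrb, and every other marker rose more than these. A mean without Emcn was not fitted. Nos3 came closest to the mean of the 12 markers, with a difference of -0.39 (SE 0.16, limma adjusted p = 0.0336). This was no longer past the threshold without any 1 of 7 of the mice (-0.49 to -0.31 over the 10 fits). Cav2 followed at -0.88, Ednra at -0.98 and Ednrb at -1.03. Ace and Cav1 were both at -1.51, Ptgis at -1.55 and Edn1 at -1.96. Farthest were Ece1 at -2.22 and Agtr1a at -2.30, next to a median of -2.39 over all genes.

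Against the mean of 8 markers of sinusoidal endothelium, the genes spread to both sides. Those markers summed to 56.6 to 95.2 RPKM in AdCMV and 183 to 261 RPKM in AdVEGF, with 7 of 8 called higher. The other marker, Dnase1l3, a nuclease, went the other way, from 10.0 ± 2.37 to 5.04 ± 1.05 RPKM (log2 fold change -0.98, limma adjusted p = 0.00424), and after median-ratio scaling it was called lower at -1.37, with 6 markers called higher. Nos3 was higher relative to them by 0.96 (SE 0.18, limma adjusted p = 0.000219), which 3.75% of all genes were. Ece1 and Agtr1a were lower by -0.88 and -0.96, as were 80.2% of all genes. The other 7 genes were not past the threshold, among them Cav2 (0.46, limma adjusted p = 0.059), Ednrb (0.31, limma adjusted p = 0.0944) and Ednra (0.37, limma adjusted p = 0.128). With Dnase1l3 left out of the mean, a choice made after seeing the data, Nos3 remained higher at 0.61 (limma adjusted p = 0.00458), while Cav2, Ednra and Ednrb were at 0.12, 0.02 and -0.03. The direction of these 4 genes, other than that of Ednrb without Dnase1l3, thus changed with the endothelial markers used.

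**Figure D4:**
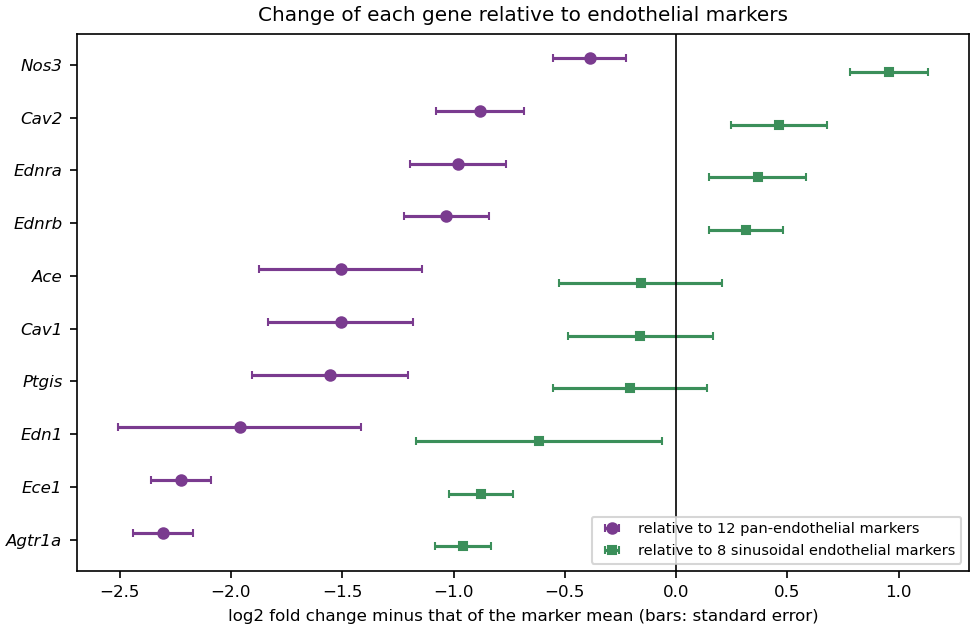
The log2 fold change of each gene minus that of the mean of endothelial markers (x axis; bars are standard errors from limma), for 12 pan-endothelial markers (purple circles) and 8 sinusoidal endothelial markers (green squares). All 10 genes lie below 0 against the first, from -2.30 for Agtr1a to -0.39 for Nos3, and Nos3 lies above 0 against the second, at 0.96.

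Markers of the contractile cells around vessels moved too. Of 9 smooth muscle and pericyte markers 8 were called higher, with a summed level of 19.6 to 40.3 RPKM in AdCMV and 110.5 to 259.9 RPKM in AdVEGF. Of 8 stellate cell markers 6 were called higher, from sums of 79.3 to 119.8 RPKM to sums of 141.8 to 289.8 RPKM. Hepatocyte markers were called higher for 2 of 8, neither of which was called after median-ratio scaling. Of 8 Kupffer cell markers 4 were higher, and 3 after median-ratio scaling. Of 4 cholangiocyte markers tested 1 was higher, while 5 of 5 T and NK cell markers tested were lower. That last count was 3 without AdCMV replicate 1 or 3 or AdVEGF replicate 4 or 5, and 2 with a pseudocount of 1. Their part in the values of the 10 genes was not tested.

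The lists of other genes of these pathways held 53 genes, of which 36 passed the filter. Of the 36, 20 were called higher and 0 lower, against the 13% and 1.54% of all genes. The called genes Prkg1, Tbxa2r, Ramp3, Apln, Aplnr and Npr3 passed the filter only through their AdVEGF level, as did 518 of the 1808 genes called higher in all, so that the count is a description. At an unadjusted p under 0.05, limma had 25 higher and 1 lower. That gene was Ptges, a prostaglandin E synthase, whose fold change was -1.28 (SE 0.49, limma adjusted p = 0.0687) on 1 to 30 reads per library. It passed the filter only through its AdCMV level, the higher of its 2 means. It was called lower after median-ratio scaling, at -1.53 (limma adjusted p = 0.0258), and with voom, at -1.81 (adjusted p = 0.0223).

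Transcripts of 6 of 10 nitric oxide pathway genes tested were called higher, against 13% of all genes, and 4 with a pseudocount of 1. Among the called, Prkg1 passed the filter only through its AdVEGF level. Ddah2, which breaks down an inhibitor of nitric oxide synthases, went from 1.67 ± 0.662 to 14.8 ± 1.09 RPKM (log2 fold change 3.13, limma adjusted p = 7.80e-08). Subunits of soluble guanylate cyclase, the receptor of nitric oxide, rose as well, Gucy1a3 by 2.75, Gucy1b3 by 2.22 and Gucy1a2 by 1.47 on the log2 scale. Prkg1, the kinase that acts on their product cyclic GMP, rose by 1.88 and Nostrin, which moves the synthase off the membrane, by 1.53. The other 4 genes were not called.

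Among genes of caveolae 4 of 5 were called higher, against 13% of all genes, and each rose by more than Cav1 or Cav2. Ptrf, the coat protein cavin that shapes the pits, went from 2.42 ± 0.799 to 22.1 ± 4.70 RPKM (log2 fold change 3.18, limma adjusted p = 1.61e-07). Its relatives Prkcdbp and Sdpr rose by 2.93 and 2.19, and Ehd2, which holds the neck of the pit, by 2.76. The differences between these genes and the caveolins were not tested. The gene not called was Pacsin2, at 0.07.

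In the endothelin and renin-angiotensin lists no gene beside those already described was called. Ece2, a second converting enzyme, was at 0.38 and Mme, which degrades vasoactive peptides, at -0.41. Edn2 and Edn3, the other endothelins, had 0 reads in all mice, which allows up to 3 reads per library. Of 4 renin-angiotensin genes tested, Agt, the precursor made by hepatocytes, was at 0.21, and the largest change was that of Agtrap, a protein that binds the receptor, at 0.89 (SE 0.22, limma adjusted p = 0.00694), under the fold change needed. At an unadjusted p under 0.05, 0 endothelin and 2 renin-angiotensin genes were higher, also with voom. Ren1 and Agtr2 had 0 reads in all mice.

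Prostanoid genes were called higher for 2 of 5 tested, against 13% of all genes. One of them, Tbxa2r, passed the filter only through its AdVEGF level, so that its call is a description. Tbxa2r, the receptor of the constrictor thromboxane, went from 0.315 ± 0.164 to 4.51 ± 1.13 RPKM (log2 fold change 3.54, limma adjusted p = 7.10e-07), on 1 to 13 reads per AdCMV library and 29 to 86 per AdVEGF library. Ptgs1, the cyclooxygenase that feeds both prostacyclin and thromboxane, rose by 1.56 from 6.56 ± 1.94 to 19.1 ± 3.80 RPKM. Tbxas1, thromboxane synthase, was at 0.97 (limma adjusted p = 0.0311), just under the fold change needed.

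Of other vasoactive peptide systems 8 of 10 genes were called higher, against 13% of all genes, and 5 with a pseudocount of 1. Among the called, Ramp3, Apln, Aplnr and Npr3 passed the filter only through their AdVEGF level, so that the count is a description. Adrenomedullin, a vasodilator, was higher at the ligand Adm (1.62), at the receptor Calcrl (1.82) and at its partner Ramp2, which went from 5.59 ± 1.59 to 37.4 ± 8.51 RPKM (2.74). Its other partner Ramp3 was called on few reads, 0 to 2 per AdCMV library and 3 to 9 per AdVEGF library. Apelin, which acts on vessels through its own receptor, was higher at Apln (2.11). The receptor Aplnr had 0 reads in every AdCMV library and 16 to 46 in the AdVEGF libraries, at least 11.2 times the level that 3 reads per AdCMV library would give. The natriuretic peptide receptors Npr1 and Npr3 rose by 1.53 and 1.42.

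**Figure D5:**
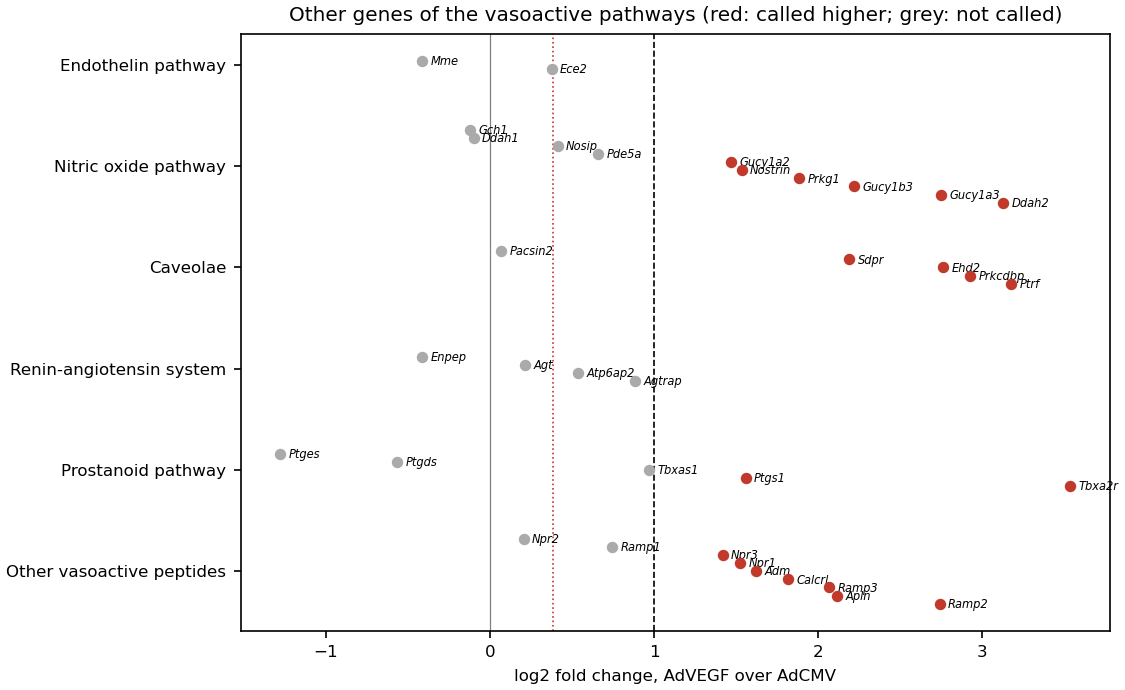
The log2 fold change, AdVEGF over AdCMV (x axis), of the pathway genes that passed the filter, by list (y axis; points of a list are spread downward for legibility). Red points are called higher and grey points are not called, the dashed line is the fold change needed and the dotted line the median of all genes at 0.38; Aplnr, with 0 reads in AdCMV, is not drawn.

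Genes whose values ran most like those of the 10 genes were found by the root mean square difference of log2 values over the 10 mice, after subtracting the AdCMV mean. Nearest to Ednrb were Nrp1 (0.145), Gimap4 (0.186) and Calcrl (0.191). Nearest to Nos3 were Cdr2l (0.172), S1pr3 (0.191) and Egfl7 (0.197). Egfl7 is a secreted endothelial protein, Nrp1 a co-receptor of VEGF and S1pr3 a receptor of sphingosine 1-phosphate. Nearest to Ednra were Lix1l (0.119), Adra2b (0.212) and Tax1bp3 (0.218), and nearest to Cav2 were Map4k4 (0.208), Igf1r (0.223) and Gm10400 (0.228).

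The remaining genes had other neighbours. Cirbp (0.210), Nov (0.221) and Noxo1 (0.331) were nearest to Cav1, and Dnm3os (0.273), Dkk3 (0.321) and Camkk2 (0.328) to Ptgis. Fstl3 (0.255), Prss57 (0.282) and Prickle3 (0.326) were nearest to Ace. The genes that changed least had the closest neighbours, Sdc2 (0.0369), Tle1 (0.0689) and Polg (0.0944) for Agtr1a and Sft2d2 (0.0840), Senp1 (0.0855) and Fbxl17 (0.0922) for Ece1. Edn1 had none near it, the closest being Dnajc12 (0.482), Fmo2 (0.554) and Thbs1 (0.557). Such a difference also holds the gene's own spread, and Edn1, on 2 to 74 reads per library, had an AdVEGF SD of 1.30 on the log2 scale. These differences are descriptions over mice that share their vector and library, and were not tested.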

How the data were processed

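Liver RNA of 10 mice was grouped by the sample labels. The authors deposited RPKM values for each mouse, and per their notes TopHat, HOMER and mm9 were used, without scaling between libraries beyond the total. Their columns of fold changes and adjusted p-values for the groups were not used. A gene was kept when the mean of either group passed 0.5 RPKM, and kept genes were fitted in limma (version 3.58.1, R 4.3.3, with a trend) on log2(RPKM + 0.1), so that fold changes understate those of low genes, with Benjamini-Hochberg adjustment over all genes tested. Read numbers were recovered from the steps of the values; 99.98% to 99.99% of values in a library were whole. Depth limits are given for 3 reads, which cover counting error only and correspond to 0.222 to 0.536 RPKM for a transcript of 1 kb. The 5 transcripts without a symbol, at most 0.00534% of a library's total, were left out. Scripts were tested on simulated data.

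The genes and lists were chosen with earlier results of these data known. Named were the 10 genes, the called genes of the pathway lists (others when at most 3, or where their counts or levels needed naming after they were seen) and the 3 closest genes to each of the 10. Replicates are labelled as biological replicates. Between libraries of a group, scaled by total reads only, the variance was at least 12.4 times that of counting noise as a mean over genes. Genes with the fewest reads were left out of that mean. It can be carried by abundant genes and does not give the spread of genes on few reads. Group labels share replicate numbers, which were not taken to pair the mice. The fits were repeated with median-ratio or upper quartile scaling, pseudocounts of 1 and 0.01, no filter or 1 RPKM, voom on recovered reads, a replicate block and leaving out each mouse. Promoters were matched by symbol in RefSeq GRCm38.p6, while other positions are those of the mm9 table. Python 3.11.15 and numpy 2.4.6 were used.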

Additional observations from a re-analysis of the deposited data

Results flagged for a closer look

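Among 26 sets of 5 values, the 10 genes and 3 ratios in each group, 4 had a mouse far from the rest, with a gap over 0.71 of the group's range on the scale of log2(RPKM + 0.1) or of the log2 ratio; chance flags about 1 in 20 groups. Ptgis in AdVEGF replicate 4, at 2.76 RPKM, lay 0.812 of the range above the next mouse. The log2 ratio of Ednrb to Ednra in the same mouse, 2.87, lay 0.775 of the range below the next. Ednrb in AdCMV replicate 3, at 12.2 RPKM, lay 0.778 of the range above the next. After median-ratio scaling it was at 9.99 RPKM in that mouse, within the 9.15 to 13.3 RPKM of the AdCMV group. The log2 ratio of Cav1 to Cav2 in AdVEGF replicate 3, -0.28, lay 0.73 of the range above the next. On the RPKM scale itself the gaps of Ptgis and Ednrb were 0.876 and 0.806, and Edn1 in AdVEGF replicate 4 also passed, at 0.753. The causes were not tested.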

How the results depend on the processing

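Of the 10 genes, 4 were called higher with median-ratio scaling, 4 with upper quartile scaling and 4 with a pseudocount of 1, against 7 with the values as deposited, and 5 to 7 when 1 mouse was left out. Over all genes, 1082, 1125, 954 and 1135 were called higher and 438, 393, 147 and 477 lower with median-ratio scaling, upper quartile scaling, a pseudocount of 1 and voom with median-ratio scaling, against 1808 and 214; leaving out 1 mouse gave 1425 to 2357 higher, the highest without AdCMV replicate 3 and the lowest without AdCMV replicate 4. The share of calls that were higher was 74.1% with upper quartile scaling. Of the pathway genes, 1 was called lower with median-ratio scaling, upper quartile scaling, voom and voom with scaling, 2 without a filter (Ptges and Ptgs2) and 0 to 1 when 1 mouse was left out, the 1 without AdCMV replicate 5.

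Relative to the sinusoidal in place of the pan-endothelial markers, 522 in place of 67 genes were higher, and 36 with a pseudocount of 1; of the 10 genes 1 was higher and 2 lower, and Ednra (0.37), Ednrb (0.31), Nos3 (0.96) and Cav2 (0.46) changed sign. With Dnase1l3 left out of those markers, added after seeing the data, 329 genes were higher, 1 of the 10 genes was higher and 2 lower, and Ednra (0.022), Nos3 (0.61) and Cav2 (0.12) had the opposite sign. The ratio of Ednrb to Ednra was 0.56 with a pseudocount of 1, and -0.18 to 0.17 when 1 mouse was left out. That of Cav1 to Cav2 was -0.84 to -0.27, with exact p = 0.0317 without AdCMV replicate 5. That of Nos3 to Cav1 was 0.93 to 1.39, with exact p = 0.0556 without AdCMV replicate 1, 2 or 3. The causes were not tested.

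The replicate block left 7 of the 10 genes called, with 1933 genes higher and 256 lower, and changed no count of calls in a pathway list. Whether mice with the same number deviated together was not settled. Their 5 correlations were all above 0 (0.00763 to 0.291), 2 of them over 0.1, and 3 of 5 AdCMV mice correlated best with their own number. The fewest reads in a library were 2 for Edn1, 3 for Ptgis and 10 for Ace and for Ednra, and whether depth set their calls was not tested.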
